A study of Homo sapiens with 8 samples.

Results

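C/D box small nucleolar RNAs were followed through the 252 genes whose symbol begins with SNORD, among 23615 genes listed with a level in each library. The SNORD116 cluster held 26 of them and the SNORD115 cluster 43, both from the imprinted 15q11 locus. The SNORD113 and SNORD114 clusters of the imprinted 14q32 locus held 38. The other 145 lie outside these clusters and are called scattered here, although SNORD64, SNORD107, SNORD108 and SNORD109B among them are single genes of 15q11. The annotated lengths of the 252 genes ran from 33 to 237 nt with a median of 79 nt, and 231 were shorter than 100 nt.

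These RNAs carry a C box near their start and a D box near their end, and they are packed with the methyltransferase fibrillarin (FBL), NOP56, NOP58 and a small core protein listed here as NHP2L1. Most guide the methylation of riboses in ribosomal RNA or in the spliceosomal RNA U6, and a few act in the cutting of the ribosomal RNA precursor. In human cells nearly all are cut out of introns of host transcripts, which either encode proteins of the translation machinery or, like GAS5 and SNHG1, serve mainly as carriers of snoRNAs.

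RNA depleted of ribosomal RNA was sequenced from 3 lines reported to bind epoxyeicosatrienoic acids (EETs), lipid mediators made from arachidonic acid, and from a line that did not bind them. The binding lines were U937 (leukemic), EaHy (endothelial) and PC3M (prostate cancer), the last named PC3M-LN4 in the growth protocol. HEK293, an embryonic kidney line, was the line without binding and was grown in DMEM, whereas the others were grown in RPMI. Each line gave 2 libraries from cells collected in duplicate, with no treatment or introduced mutation named, and the study used them to search for receptors, not for snoRNAs.

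Levels are FPKM, which are fragments scaled to the length of the gene and to the mapped fragments of the library. Those of 16295 genes that reached 0.5 FPKM in 2 or more of the 8 libraries were compared on the scale log2(FPKM + 0.5) with limma, and an adjusted p under 0.05 was called. The p-values measure the spread between libraries of cells collected in duplicate. The summed FPKM of a library ran from 497389 to 1926028, and counts of fragments were not used here. Against HEK293, 7 of 7 leukocyte markers were higher in U937, 5 of 7 endothelial markers in EaHy and 2 of 6 epithelial markers in PC3M, against 4.47%, 4.55% and 2.39% of all genes tested. The epithelial marker CDH1 was lower in PC3M (limma log2 difference -1.69 ± 0.45 SE, adjusted p = 0.0294). In EaHy 3 of the 6 epithelial markers were higher, and in U937 1 endothelial marker was. EaHy replicate 2 and both PC3M libraries stood apart in small RNAs, with 275616, 475789 and 506736 FPKM of RMRP, the RNA of a ribonuclease active in the nucleolus, against at most 1131 FPKM in the other 5 libraries. Some results that rest on them are also given without 1 or more of them, and others only with them. PC3M has no library outside this group, so no PC3M result stands free of it.

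The sequences that follow show the features the results turn on. They are the transcripts of GENCODE 29 on GRCh38, written with T, and capitals mark an exact C box (TGATGA, starting within the first 21 nt) and an exact D box (CTGA, within the last 20 nt), searched on the transcript strand. Among 229 SNORD transcripts with a sequence to search, 169 held that C box, 222 that D box and 166 held both. A snoRNA without capitals at an end has other letters there, and nothing else follows from that.

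The first set holds long snoRNAs, which dominated the SNORD level in EaHy replicate 2 and in PC3M. SNORD22 and SNORD97 lie on chromosome 11 on the minus strand, and SNORD94 on chromosome 2 on the plus strand.
SNORD22: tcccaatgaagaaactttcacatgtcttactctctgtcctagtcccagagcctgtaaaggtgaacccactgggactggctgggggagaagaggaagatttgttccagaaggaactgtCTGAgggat
SNORD94: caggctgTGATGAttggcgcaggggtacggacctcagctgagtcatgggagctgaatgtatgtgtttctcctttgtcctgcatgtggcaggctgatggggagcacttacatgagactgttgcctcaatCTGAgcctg
SNORD97: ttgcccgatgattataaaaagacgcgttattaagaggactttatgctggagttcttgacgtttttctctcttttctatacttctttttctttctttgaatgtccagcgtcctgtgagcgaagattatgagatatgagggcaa

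The second set holds short snoRNAs of the kind listed at 0 in EaHy replicate 2 and PC3M replicate 1. SNORD36A lies in RPL7A on chromosome 9 and SNORD104 on chromosome 17, both on the plus strand.
SNORD36A: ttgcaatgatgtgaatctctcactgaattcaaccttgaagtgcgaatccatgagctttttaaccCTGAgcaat
SNORD104: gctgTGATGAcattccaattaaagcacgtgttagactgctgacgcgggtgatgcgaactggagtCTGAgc

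The third set holds copies of SNORD116 from the plus strand of chromosome 15, with the 5 near-identical copies that shared a single value in an EaHy library shown last.
SNORD116-1: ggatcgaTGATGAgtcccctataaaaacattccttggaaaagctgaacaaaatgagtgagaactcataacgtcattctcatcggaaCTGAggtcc
SNORD116-26: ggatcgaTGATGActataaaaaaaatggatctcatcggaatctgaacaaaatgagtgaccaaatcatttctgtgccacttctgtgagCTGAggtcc
SNORD116-14: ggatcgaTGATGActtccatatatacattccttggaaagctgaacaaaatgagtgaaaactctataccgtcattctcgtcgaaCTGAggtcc
SNORD116-15: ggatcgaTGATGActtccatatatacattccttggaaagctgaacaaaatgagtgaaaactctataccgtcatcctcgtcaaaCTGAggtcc
SNORD116-18: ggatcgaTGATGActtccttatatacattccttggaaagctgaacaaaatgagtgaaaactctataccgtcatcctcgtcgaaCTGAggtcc
SNORD116-19: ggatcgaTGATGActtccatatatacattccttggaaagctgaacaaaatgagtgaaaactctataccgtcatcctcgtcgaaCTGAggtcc
SNORD116-24: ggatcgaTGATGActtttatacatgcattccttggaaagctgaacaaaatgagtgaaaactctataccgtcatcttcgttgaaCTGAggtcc

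The fourth set holds copies from the other imprinted clusters, both SNORD114 copies from chromosome 14 and the SNORD115 copy from chromosome 15, all on the plus strand.
SNORD114-2: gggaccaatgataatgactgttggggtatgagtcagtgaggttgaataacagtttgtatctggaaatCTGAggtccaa
SNORD114-3: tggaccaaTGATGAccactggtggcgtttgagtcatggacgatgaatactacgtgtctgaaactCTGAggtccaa
SNORD115-7: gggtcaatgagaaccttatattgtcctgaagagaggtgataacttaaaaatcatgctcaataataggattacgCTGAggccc

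Of the 252 SNORD genes, 85 were listed at 0 in all 8 libraries and 166 reached 0.5 FPKM in at least 1 library. The genes at 0 throughout were 41 of 43 in SNORD115, 4 of 26 in SNORD116, 30 of 38 in SNORD113 and SNORD114, and 10 of 145 among the others. Of the 2016 values, 15 lay above 0 but under 0.5 FPKM, so presence is counted from 0.5 FPKM on.

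The other 145 SNORD genes, mostly guides for ribosomal RNA, formed the bulk of the signal. Of them, 52.4% and 75.2% reached 0.5 FPKM in the U937 libraries, 61.4% and 7.59% in those of EaHy, 7.59% and 47.6% in those of PC3M, and 55.2% and 74.5% in those of HEK293. EaHy replicate 2 and PC3M replicate 1 were far below their partner libraries, whereas U937 and HEK293 gave similar numbers. All SNORD genes together made up 3.22% and 3.72% of the summed FPKM in the U937 libraries, 3.60% and 12.6% in those of EaHy, 0.771% and 10.2% in those of PC3M, and 8.66% and 4.76% in those of HEK293.

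**Figure D1:**
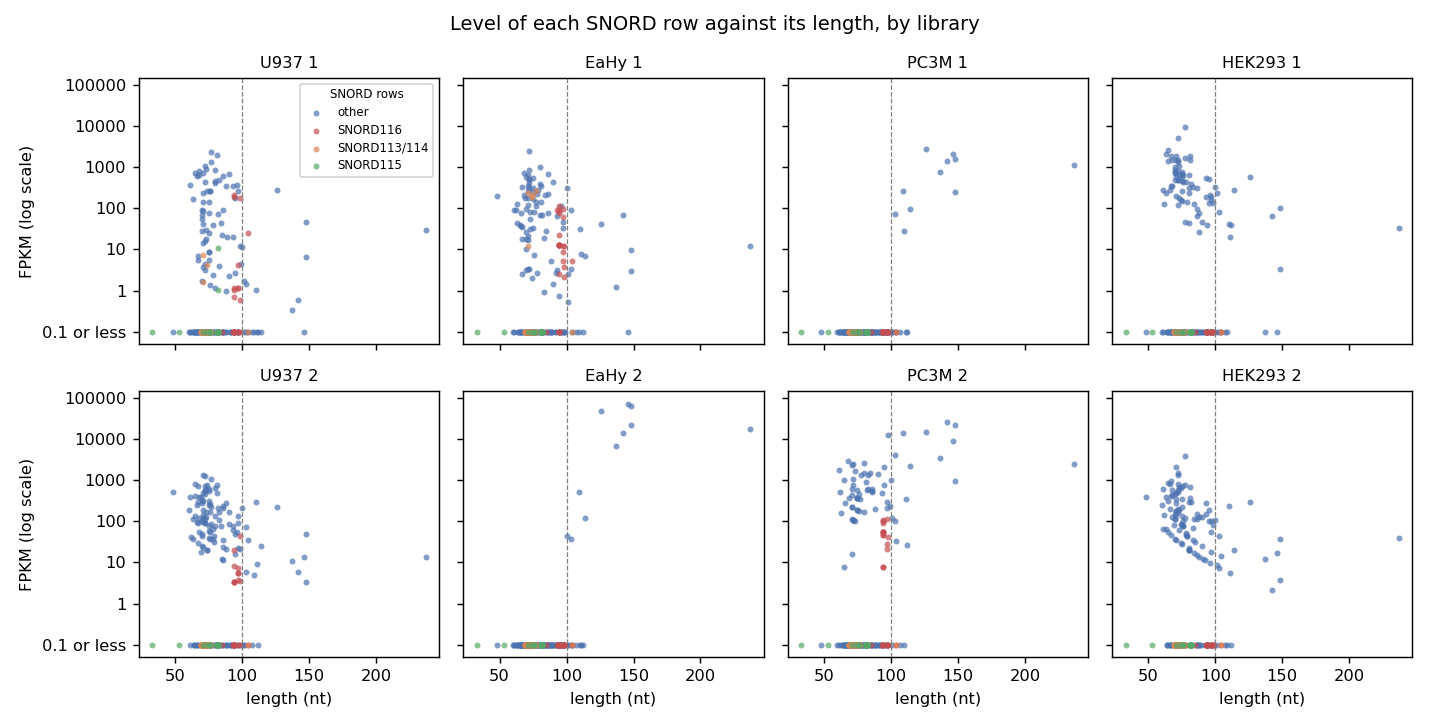
Level of each of the 252 SNORD genes (FPKM, log axis, values of 0.1 or less drawn at 0.1) against its annotated length in nucleotides, with a panel for each of the 8 libraries, colours for the clusters and a dashed line at 100 nt. In EaHy replicate 2 and PC3M replicate 1 no gene left of the line rises from the floor, and in the other 6 libraries most of the genes present lie there.

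Length divided these libraries sharply. In EaHy replicate 2 and PC3M replicate 1, 0 of the 231 SNORD genes under 100 nt reached 0.5 FPKM, and all of them were listed at exactly 0. In the other 6 libraries 147 of those genes reached it at least once. The genes under 100 nt summed to 19776 and 22327 FPKM in U937, to 17321 and 0 FPKM in EaHy, to 0 and 50882 FPKM in PC3M, and to 54242 and 28309 FPKM in HEK293. EaHy and PC3M thus each had a library at 0 beside a library whose sum was of the same order as in the other lines.

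Among the 21 genes of 100 nt or more, 13 reached 0.5 FPKM in EaHy replicate 2 or PC3M replicate 1, and 9 in both. The 7 genes of 120 nt or more summed to 354 and 311 FPKM in U937, to 136 and 242252 FPKM in EaHy, to 9865 and 78545 FPKM in PC3M, and to 782 and 404 FPKM in HEK293. The 3 libraries with high sums were EaHy replicate 2 and both PC3M libraries. MicroRNA genes were low in the same libraries, at 41983 and 38176 FPKM in U937, 33619 and 1133 FPKM in EaHy, 182 and 6149 FPKM in PC3M, and 53109 and 41213 FPKM in HEK293. H/ACA snoRNA genes of 120 nt or more summed to 2332 and 2641 FPKM in U937, 2453 and 470870 FPKM in EaHy, 63483 and 332868 FPKM in PC3M, and 4960 and 2455 FPKM in HEK293. Small RNAs of other classes therefore moved with the SNORD genes of like length, except that microRNAs were also low in PC3M replicate 2. The part of RNA recovery or library preparation in this was not tested.

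**Figure D2:**
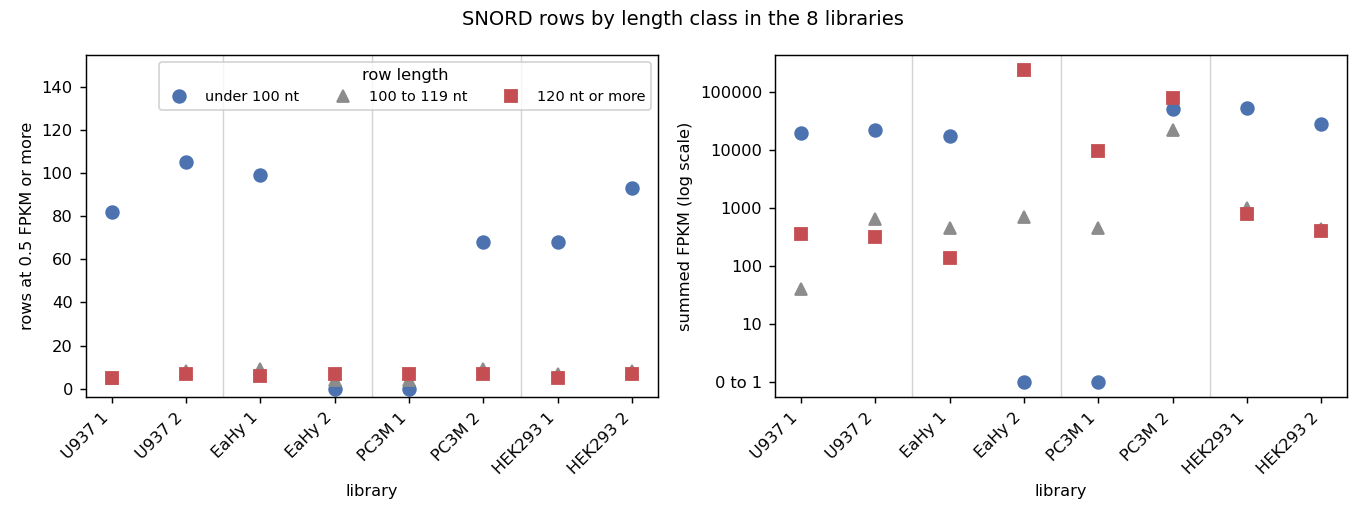
Number of SNORD genes at 0.5 FPKM or more (left, linear axis) and their summed FPKM (right, log axis, sums under 1 drawn at the lowest tick) in each of the 8 libraries, split by length. Genes under 100 nt drop to 0 in EaHy replicate 2 and PC3M replicate 1, and genes of 120 nt or more stand highest in EaHy replicate 2 and both PC3M libraries.

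The long snoRNAs were individually abundant in those libraries. SNORD22, or U22, is needed for maturation of the small-subunit ribosomal RNA in Xenopus oocytes and is carried by SNHG1. It was at 269.7 and 215.8 FPKM in U937, 42.3 and 47791 FPKM in EaHy, 2737 and 15002 FPKM in PC3M, and 583.6 and 292.9 FPKM in HEK293. Its lowest value in EaHy replicate 2 and the PC3M libraries, 2737 FPKM, was above its highest value in the other 5 libraries, 583.6 FPKM. The libraries were grouped this way after long small RNAs were seen to be high in them.

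SNORD15A and SNORD15B, guides for the large-subunit ribosomal RNA in introns of RPS3, followed the same order. SNORD15B was at 0 and 13.9 FPKM in U937, 0 and 72046 FPKM in EaHy, 2011 and 8877 FPKM in PC3M, and 0 and 17.3 FPKM in HEK293. SNORD15A was at 6.34 and 3.30 FPKM in U937, 2.95 and 21241 FPKM in EaHy, 253.8 and 948 FPKM in PC3M, and 3.41 and 3.66 FPKM in HEK293. Neither overlapped between the 3 libraries and the other 5, a split made after long small RNAs, these among them, were seen to be high. The gap therefore describes the split and is no test of it. The EaHy libraries differed 7204-fold in SNORD15A. RPS3 itself ranged only from 321 to 1178 FPKM over the 8 libraries.

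SNORD10, within EIF4A1, was at 46.6 and 47.9 FPKM in U937, 9.74 and 62828 FPKM in EaHy, 1580 and 22022 FPKM in PC3M, and 99.0 and 36.6 FPKM in HEK293. SNORD17, the longest SNORD gene at 237 nt, was at 30.0 and 13.8 FPKM in U937, 12.4 and 17441 FPKM in EaHy, 1104 and 2433 FPKM in PC3M, and 32.7 and 39.4 FPKM in HEK293. Both were present in every library. The genes at 0.5 FPKM or more in all 8 libraries were 5, namely SNORD10, SNORD15A, SNORD17, SNORD22 and SNORD97, each over 120 nt.

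SNORD94, a guide for U6 carried by PTCD3, was at 0.334 and 10.8 FPKM in U937, 1.21 and 6719 FPKM in EaHy, 754 and 3493 FPKM in PC3M, and 0 and 12.2 FPKM in HEK293. SNORD97, a guide for the elongator methionine transfer RNA carried by EIF4G2, was at 0.592 and 5.73 FPKM in U937, 67.7 and 14187 FPKM in EaHy, 1424 and 25769 FPKM in PC3M, and 63.6 and 2.13 FPKM in HEK293. SNORD97 varied between HEK293 libraries more than any other scattered SNORD gene present in both, by 29.8-fold.

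The 5 highest genes also differed in length between libraries. They held 91.1% of the SNORD sum in EaHy replicate 2 and 85.8% in PC3M replicate 1, all 5 being 126 nt or longer. In PC3M replicate 2 they held 58.8% and ranged from SNORD46, at 98 nt, to SNORD10, at 148 nt. In U937 they held 37.2% and 22.5%, in EaHy replicate 1 31.7%, and in HEK293 37.4% and 33.0%, all of them under 100 nt. SNORD81, a GAS5 snoRNA, led U937 replicate 1 at 2278 FPKM and both HEK293 libraries at 9427 and 3791 FPKM. SNORD36A, an RPL7A snoRNA, led EaHy replicate 1 at 2428 FPKM, and SNORD97 led PC3M replicate 2 at 25769 FPKM.

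Replicates varied more in snoRNAs than in their hosts. Over the scattered SNORD genes at 0.5 FPKM or more in both libraries of a line, the median fold between the libraries was 4.10 for U937 (69 genes), 1129 for EaHy (9 genes), 5.06 for PC3M (10 genes) and 2.80 for HEK293 (72 genes). Over the listed host genes it was 1.52 for U937, 1.51 for EaHy, 2.44 for PC3M and 1.40 for HEK293. These folds are descriptions over genes of 2 libraries each and carry no test.

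At some lengths the levels of equally long scattered SNORD genes in a library were whole multiples of a step, a pattern looked for after the values were seen. This held at 5 of 7 lengths with 4 or more genes present in U937 replicate 2, 1 of 5 in EaHy replicate 1, 3 of 3 in PC3M replicate 2, 3 of 5 in HEK293 replicate 1 and 3 of 5 in HEK293 replicate 2, and at 0 of 5 in U937 replicate 1. The 7 scattered genes of 75 nt present in HEK293 replicate 2 were at 1, 3, 3, 5, 8, 13 and 27 times 27.2 FPKM, each within 0.03 of a whole number. The 6 genes of 75 nt present in PC3M replicate 2 were at 1, 1, 2, 2, 2 and 3 times 187 FPKM. For genes of 75 nt the step was 19.1 FPKM in U937 replicate 2 and 50.8 FPKM in HEK293 replicate 1. In PC3M replicate 2 the step was 7.90 FPKM at 71 nt and 106 FPKM at 72 nt. The search took the lowest value of a length, divided by a whole number up to 6. The step at 71 nt thus rests on SNORD45B, at 15.8 FPKM, with the next gene, SNORD6, at 110.6 FPKM. No trend of the step with length is drawn from these values. SNORD26 at 187 FPKM in PC3M replicate 2 stood at a single step of its length. What a step stands for was not tested, since no fragment counts were used.

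Since the comparisons share the HEK293 libraries, their values are set side by side without a measure of overlap. Of the 139 SNORD genes tested, 120 were under 100 nt and 20 belonged to SNORD116. No SNORD115, SNORD113 or SNORD114 gene reached 0.5 FPKM in 2 libraries.

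In U937, whose libraries both listed short snoRNAs, few SNORD genes were called against HEK293. limma called 2 of 139 higher and 2 lower, 1.44% each, against 4.47% higher and 10.6% lower among all genes tested, and 10 of 139 had an unadjusted p under 0.05. The median log2 difference of the SNORD genes was -0.23, against -0.22 over all genes tested. SNORD51, carried by EEF1B2, was at 89.3 and 99.5 FPKM in U937 and listed at 0 in both HEK293 libraries (limma adjusted p = 0.0101). SNORD125, carried by AP1B1, had 356 and 53.3 FPKM in U937, against 0 and 0.0618 FPKM in HEK293 (limma, log2 difference 8.03 ± 2.10 SE, adjusted p = 0.0355). The groups did not overlap for either gene.

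The lower calls in U937 were SNORD11, carried by NOP58, and SNORD119, carried by SNRPB. SNORD11 was listed at 0 in all 6 libraries of the binding lines and at 124 and 16.6 FPKM in HEK293. SNORD119 was listed at 0 in the same 6 libraries and at 214 and 9.56 FPKM in HEK293. They were the only SNORD genes present in both libraries of a line and at 0 in the other 6. SNORD119 in HEK293 replicate 2, at 9.56 FPKM, was the lowest present among SNORD genes under 100 nt in that library. EaHy replicate 2 and PC3M replicate 1 listed every SNORD gene under 100 nt at 0. No such gene could therefore meet this rule in EaHy or PC3M, and the zeros of SNORD11 and SNORD119 in these libraries were shared by all short genes. Their adjusted p in limma was 0.00142 and 0.00635 for U937, 0.00169 and 0.00730 for EaHy, and 0.00231 and 0.00861 for PC3M.

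The hosts of these 4 snoRNAs did not follow them at the threshold. EEF1B2, a translation elongation factor subunit, was at 349 and 562 FPKM in U937 and 402 and 650 FPKM in HEK293. NOP58, itself a snoRNP protein, was at 37.4 and 80.6 FPKM in U937 and 65.8 and 75.6 FPKM in HEK293. AP1B1 had a limma log2 difference of -0.56 ± 0.98 SE in U937 (adjusted p = 0.876), and SNRPB one of -0.20 ± 0.96 SE (adjusted p = 0.971).

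The calls in U937 depended on single libraries in part. The higher count rose without either EaHy library and fell without either PC3M library or HEK293 replicate 2. The lower count rose without U937 replicate 2, either EaHy library or either PC3M library. Calls over all genes changed in these fits as well. SNORD51 had an adjusted p of 0.0582 without U937 replicate 2 and 0.0550 without HEK293 replicate 2. SNORD125 had one of 0.166 without U937 replicate 1, 0.0717 without U937 replicate 2, 0.0771 and 0.0776 without the first or second PC3M library, and 0.133 and 0.123 without the first or second HEK293 library. SNORD119 in PC3M was not called without PC3M replicate 2. SNORD11 and SNORD119 were at 0 in all libraries of the binding lines, so their spread came from HEK293 alone. Without either HEK293 library their own values held no spread, so a call kept there does not show that it is stable.

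In EaHy, limma called 0 of 139 SNORD genes higher and 15 lower, or 10.8%, against 4.55% higher and 9.80% lower among all genes tested. The share of lower SNORD genes was close to that background, and 34 SNORD genes had an unadjusted p under 0.05. All 15 lower genes were under 100 nt and at 0 in EaHy replicate 2, and 13 were at 0 in both EaHy libraries. The count was 28 without EaHy replicate 1, 8 without EaHy replicate 2, and 6 and 10 without the first or second HEK293 library. Higher calls numbered 8 without EaHy replicate 1 and 4 without EaHy replicate 2.

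In PC3M, limma called 2 of 139 SNORD genes higher and 25 lower, or 1.44% and 18.0%, against 2.39% higher and 25.3% lower among all genes tested. Both shares were below the background. All 25 lower genes were under 100 nt and at 0 in both PC3M libraries. Of the 126 scattered SNORD genes under 100 nt, 53, or 42.1%, were present in PC3M replicate 2. The lower count fell without either PC3M library or either HEK293 library. The higher count rose without PC3M replicate 1 or either EaHy library, and fell without PC3M replicate 2 or either HEK293 library. Calls over all genes changed in these fits as well, so the changed counts are not set against the shares above.

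**Figure D3:**
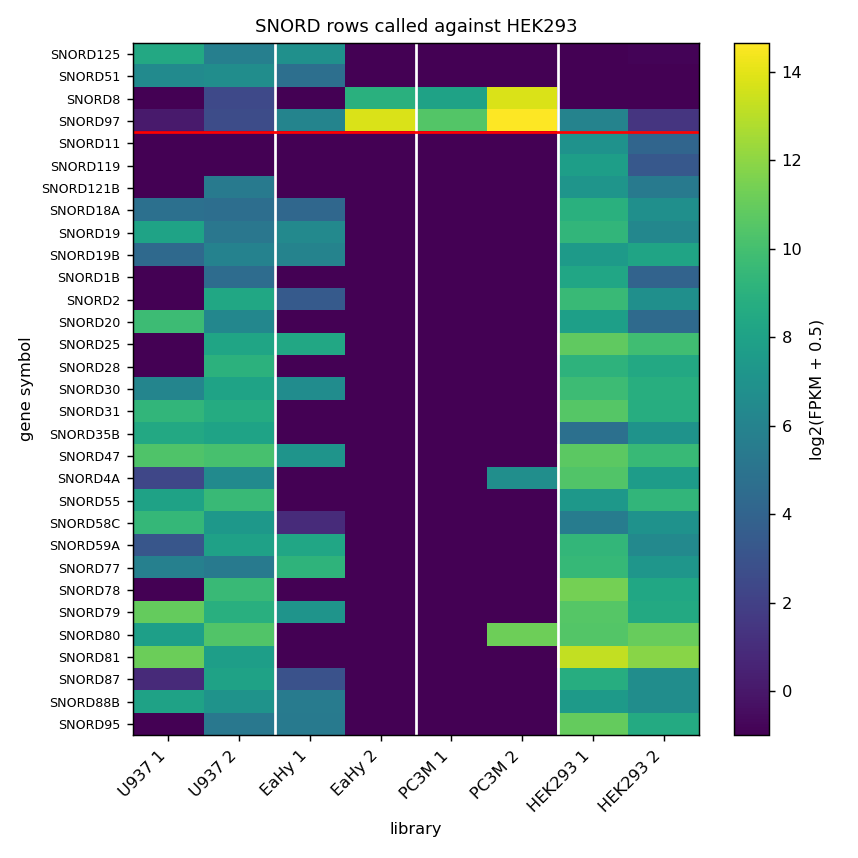
Levels, as log2(FPKM + 0.5), of the 31 SNORD genes called in any comparison with HEK293, with a column for each library and a red line between the 4 called higher (above) and the 27 called lower (below). Most of the lower genes sit at the floor in EaHy replicate 2 and both PC3M libraries and are present in U937 as well as HEK293.

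Among the lower genes, 4 were present in both U937 libraries and both HEK293 libraries, listed at 0 in all 4 EaHy and PC3M libraries, and called without any single library. SNORD31, carried by SNHG1, was at 637 and 389.9 FPKM in U937 and 1450 and 432 FPKM in HEK293. SNORD55 was at 260.2 and 765 FPKM in U937 and 162 and 637 FPKM in HEK293. SNORD35B was at 349 and 276 FPKM in U937 and 26.7 and 129 FPKM in HEK293. Its 26.7 FPKM in HEK293 replicate 1 was the lowest level present among SNORD genes under 100 nt in that library. SNORD81, carried by GAS5, was at 2278 and 222 FPKM in U937 and 9427 and 3791 FPKM in HEK293. Their adjusted p against HEK293 was between 0.000606 and 0.00121 in EaHy and between 0.000858 and 0.00166 in PC3M by limma. For these genes EaHy replicate 1 and PC3M replicate 2 were at 0 as well. The zeros of EaHy replicate 2 and PC3M replicate 1 were shared by every SNORD gene under 100 nt. Each line thus had a single library that could show these genes, and the equal zeros added no spread to the fit. Whether a gene at 0 there went undetected was not tested.

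The higher genes in PC3M were SNORD97 and SNORD8. SNORD97 rose by a log2 difference of 8.87 ± 2.58 SE against HEK293 (limma adjusted p = 0.0383). SNORD8, a guide for U6 carried by CHD8, was at 0 and 4.89 FPKM in U937, 0 and 499 FPKM in EaHy, 257.8 and 14039 FPKM in PC3M, and 0 in both HEK293 libraries (limma adjusted p = 0.0260 in PC3M). SNORD9, its neighbour in the same host, was at 1.46 and 5.98 FPKM in U937, 3.24 and 37.8 FPKM in EaHy, 0 and 4091 FPKM in PC3M, and 0 and 7.22 FPKM in HEK293, with no call. CHD8 ran from 8.27 to 21.1 FPKM over all 8 libraries. Without PC3M replicate 2 the adjusted p was 0.228 for SNORD97 and 0.171 for SNORD8, with HEK293 reduced to its second library it was 0.0783 and 0.102, and with HEK293 reduced to its first 0.215 and 0.132.

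GAS5 carries 10 of the snoRNAs in its introns, and the number present varied between libraries in which GAS5 itself was listed. GAS5 was at 369 and 161 FPKM in U937, 92.3 and 157 FPKM in EaHy, 128 and 251 FPKM in PC3M, and 325 and 274 FPKM in HEK293, with no call. Of its snoRNAs, 6 and 10 were present in the U937 libraries, 5 and 0 in those of EaHy, 0 and 4 in those of PC3M, and 8 and 10 in those of HEK293. Within EaHy replicate 1, SNORD77 was at 569 FPKM and SNORD81 at 0. Within PC3M replicate 2, SNORD80 was at 2378 FPKM and SNORD44 at 1759 FPKM, while SNORD47, SNORD79 and SNORD81 were at 0.

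SNORD47, another GAS5 snoRNA, was at 1304 and 1074 FPKM in U937, 139 and 0 FPKM in EaHy, 0 in both PC3M libraries, and 1670 and 750 FPKM in HEK293. It was lower in PC3M (limma adjusted p = 0.0112) but not without PC3M replicate 2 (0.0792), HEK293 replicate 1 (0.0717) or HEK293 replicate 2 (0.0631). U937 and HEK293 overlapped for this gene.

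SNHG1 was at 63.3 and 85.5 FPKM in U937, 43.9 and 16.9 FPKM in EaHy, 65.1 and 18.1 FPKM in PC3M, and 107.2 and 80.3 FPKM in HEK293. Of its 8 snoRNAs, 6 and 8 were present in the U937 libraries, 6 and 1 in those of EaHy, 1 and 4 in those of PC3M, and 8 in both of HEK293. The gene left in EaHy replicate 2 and PC3M replicate 1 was SNORD22, the longest of the 8 at 126 nt.

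**Figure D4:**
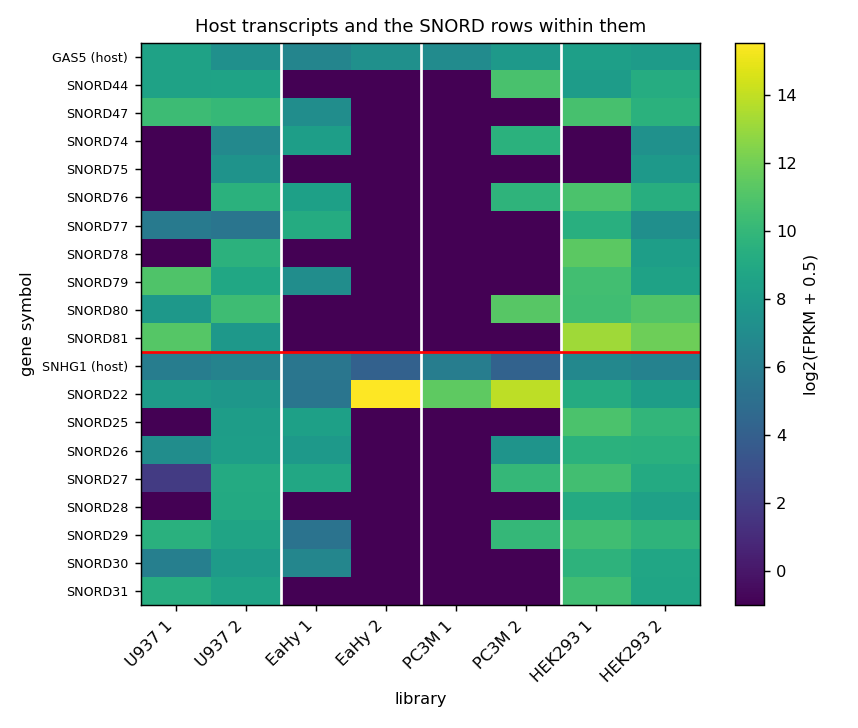
Levels, as log2(FPKM + 0.5), of the host transcripts GAS5 and SNHG1 and of the 10 and 8 SNORD genes within them, with a column for each library and a red line between the families. Both hosts are present in all 8 libraries, while their short snoRNAs are at the floor in EaHy replicate 2 and PC3M replicate 1.

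Over all hosts, 165 SNORD genes lay within a gene of the table, and 66 such hosts were tested. limma called 0 higher and 0 lower in U937, 1 higher and 0 lower in EaHy, and 0 higher and 10 lower in PC3M. The share lower in PC3M, 15.2%, was below the 25.3% of all genes tested. Of the 25 lower snoRNAs in PC3M, 23 had a host in the table and 1 had a host that was lower as well. That pair was SNORD20 and NCL, nucleolin, which acts in ribosome assembly (log2 difference -3.30 ± 1.01 SE, limma adjusted p = 0.0437). SNHG5, a further carrier of snoRNAs, was at 596 and 606 FPKM in U937, 226 and 180 FPKM in EaHy, 32.4 and 17.1 FPKM in PC3M, and 267 and 305 FPKM in HEK293. It fell in PC3M by 3.57 ± 0.65 SE on the log2 scale (limma adjusted p = 0.00969, but 0.0903 and 0.132 without the first or second HEK293 library).

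Of the 4 core proteins of the C/D particle, 1 of 4 fell in PC3M, or 25.0% against 25.3% of all genes tested, and none passed the threshold in U937 or EaHy. FBL, the methyltransferase, was at 122 and 291 FPKM in U937, 94.3 and 54.4 FPKM in EaHy, 52.3 and 11.98 FPKM in PC3M, and 185 and 302 FPKM in HEK293. It fell in PC3M by 3.21 ± 0.88 SE on the log2 scale (limma adjusted p = 0.0329), and the adjusted p was 0.143 without PC3M replicate 2, and 0.122 and 0.217 without the first or second HEK293 library. NOP56, NOP58 and NHP2L1 had no call in any comparison, and PC3M replicate 2 was the lowest library for each of the 4. Of 13 tested assembly factors, limma called 1 higher and 1 lower in PC3M, or 7.69% each against 2.39% higher and 25.3% lower among all genes tested, and none in U937 or EaHy. C12orf45 rose in PC3M, at 77.7 and 45.8 FPKM against 11.3 and 17.7 FPKM in HEK293 (adjusted p = 0.0490), and RPAP3, a subunit of the chaperone complex that loads the particle, fell, at 3.85 and 1.05 FPKM against 12.5 and 16.99 FPKM in HEK293 (adjusted p = 0.0295).

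SNORD116 is the cluster whose loss from the paternal chromosome causes key features of Prader-Willi syndrome, and its ribosomal targets, if any, are unknown. It was present in at least 1 library of each binding line and at 0 in HEK293. Of its 26 copies, 11 and 11 reached 0.5 FPKM in the U937 libraries, 20 and 0 in those of EaHy, 0 and 15 in those of PC3M, and 0 in both of HEK293. They summed to 611 and 107.1 FPKM in U937, 653 and 0 FPKM in EaHy, 0 and 828 FPKM in PC3M, and 0 in both HEK293 libraries. EaHy replicate 2 and PC3M replicate 1 thus overlapped HEK293 at 0, and the copies are 85 to 104 nt long.

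**Figure D5:**
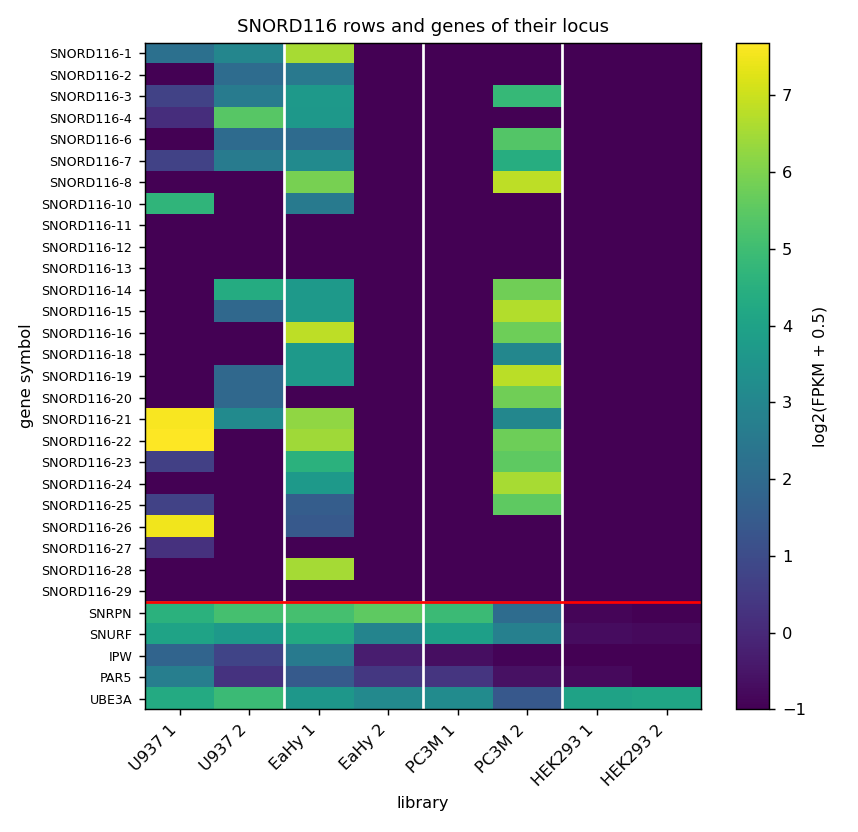
Levels, as log2(FPKM + 0.5), of the 26 SNORD116 genes (above the red line) and of SNRPN, SNURF, IPW, PAR5 and UBE3A from their locus (below it), with a column for each library. SNORD116 genes are present in U937, EaHy replicate 1 and PC3M replicate 2 and at the floor in HEK293, where SNRPN and SNURF are also near the floor and UBE3A is not.

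With all 8 libraries, limma called 0 of the 20 tested SNORD116 genes in any comparison, with 1, 0 and 0 of them at an unadjusted p under 0.05 in U937, EaHy and PC3M. The smallest adjusted p was 0.135 in U937, for SNORD116-21, which was at 192 and 8.32 FPKM in U937, 74.5 and 0 FPKM in EaHy, 0 and 7.68 FPKM in PC3M, and 0 in both HEK293 libraries. SNORD116-22 led U937 replicate 1 at 205 FPKM, SNORD116-4 led U937 replicate 2 at 42.9 FPKM, SNORD116-16 led EaHy replicate 1 at 111.7 FPKM and SNORD116-8 led PC3M replicate 2 at 111 FPKM. The leading copy differed in each library.

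The SNORD116 calls depended on the libraries kept. All copies were listed at 0 in both HEK293 libraries, so a call against HEK293 could only be higher. Calls appeared in PC3M without PC3M replicate 1, with log2 differences of 5.42 to 7.80. SNORD116-1 was called in EaHy without EaHy replicate 2, with a log2 difference of 7.56. Each of these fits leaves 1 library of the line, assumed to vary like the others. Without both PC3M replicate 1 and EaHy replicate 2, a choice made after seeing the data, limma called 2 copies higher in U937. Among all 15882 genes tested in that fit, 845 were higher in U937. In U937, SNORD116-1 and SNORD116-21 were called without EaHy replicate 1 (adjusted p = 0.000442 and 0.0187), without EaHy replicate 2 (0.00199 and 0.0311) and when only U937 and HEK293 were fitted (0.00569 and 0.0444). Without U937 replicate 1, SNORD116-4 was called (0.0360), and without U937 replicate 2, SNORD116-10 and SNORD116-26 (0.0364 and 0.0102).

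SNORD116-26, a more divergent copy, was at 179.7 and 0 FPKM in U937 and 2.17 and 0 FPKM in EaHy, and at 0 in PC3M and HEK293. SNORD116-1 was at 4.13 and 7.43 FPKM in U937 and 93.6 and 0 FPKM in EaHy, and at 0 in PC3M and HEK293. The copies at 0 in all 8 libraries were SNORD116-11, SNORD116-12, SNORD116-13 and SNORD116-29.

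Reads could be shared between like copies, so the level of a single copy is uncertain, and how they were assigned was not tested. The 325 pairs of copies were 57.7% to 99.0% identical. In EaHy replicate 1, SNORD116-14, SNORD116-15, SNORD116-18, SNORD116-19 and SNORD116-24 shared the value 12.4 FPKM exactly, and these 5, printed above, were 92.4% to 98.9% identical to each other. In PC3M replicate 2, SNORD116-23 and SNORD116-25 also shared a value, 46.1 FPKM, at 71.3% identity. Of the 15 copies present in PC3M replicate 2, 7 had a value that no other copy shared.

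A pair of neighbouring genes of 15q11 was also low in HEK293. SNRPN, which encodes a spliceosomal protein and is expressed from the paternal allele upstream of the cluster, was at 22.8 and 34.4 FPKM in U937, 34.1 and 46.0 FPKM in EaHy, 29.5 and 3.66 FPKM in PC3M, and 0.0376 and 2.07e-07 FPKM in HEK293. Its log2 difference from HEK293 was 5.78, 6.27 and 4.43 in U937, EaHy and PC3M (each ± 0.90 SE, limma adjusted p = 0.00356, 0.00292 and 0.0139). SNURF, read from the same transcript, was higher by 4.58, 4.34 and 4.07 (each ± 0.68 SE, limma adjusted p = 0.00297, 0.00437 and 0.00697). All 6 libraries of the binding lines were above both HEK293 libraries for both genes, including the libraries without short snoRNAs.

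These calls weakened when HEK293 was left with a single library. In PC3M the adjusted p of SNRPN was 0.0894 and 0.121 without the first or second HEK293 library, and that of SNURF was 0.0755 and 0.0922. In EaHy that of SNURF was 0.0510 and 0.0605. The log2 differences stayed positive in each case.

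Of the 7 tested genes of the 15q11 list, 2 were higher and 0 lower in each comparison, SNRPN and SNURF throughout, against 4.47%, 4.55% and 2.39% of all genes higher in U937, EaHy and PC3M. IPW, a noncoding gene next to the cluster, was at 2.98 and 1.21 FPKM in U937, 5.38 and 0.315 FPKM in EaHy, 0.122 and 0.0274 FPKM in PC3M, and 0.00789 and 0 FPKM in HEK293, with no call. UBE3A, a ubiquitin ligase gene further along and outside neurons expressed from both alleles, was at 19.2 and 29.8 FPKM in U937, 11.7 and 7.93 FPKM in EaHy, 8.54 and 2.10 FPKM in PC3M, and 15.5 and 16.5 FPKM in HEK293, with no call.

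SNORD115, whose copies match the serotonin receptor messenger RNA HTR2C and are known mainly from neurons, was listed at 0 for most copies, which does not show that the RNA was absent. Of its 43 copies, SNORD115-7 at 10.51 FPKM and SNORD115-38 at 1.05 FPKM were present, both in U937 replicate 1 alone. All 43 were listed at 0 in the other 7 libraries. The locus also holds single snoRNA genes. SNORD108 reached 17.9 FPKM in U937 replicate 2 and 172 FPKM in EaHy replicate 1 only. SNORD109B was at 17.8 FPKM in EaHy replicate 1 and at 0 elsewhere, SNORD107 stayed under 0.5 FPKM, and SNORD64 was listed at 0 throughout. U937 replicate 1 and EaHy replicate 1 listed 94.3% and 94.8% of all genes above 0, against at most 80.3% in any other library. A gene present in either alone is therefore not read as a trait of the line.

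SNORD113 and SNORD114 come from introns of MEG8 on the maternal copy of 14q32, and their targets are not established. Of the 38 genes, 3 were present in U937 replicate 1 and 5 in EaHy replicate 1, and the other 6 libraries listed all of them at 0. U937 replicate 1 and EaHy replicate 1 listed 94.3% and 94.8% of all genes above 0, against 64.4% to 80.3% in the others. Presence in them alone is therefore not read as a trait of the line. In EaHy replicate 1, SNORD114-2 was at 255.2 FPKM, SNORD114-18 at 238 FPKM, SNORD114-3 at 209.9 FPKM, SNORD114-19 at 184 FPKM and SNORD114-6 at 12.2 FPKM. In U937 replicate 1, SNORD114-25 was at 7.30 FPKM, SNORD114-31 at 4.13 FPKM and SNORD114-26 at 1.64 FPKM. No SNORD113 gene was present in any library.

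The long genes of 14q32 were present in both EaHy libraries. MEG3, a noncoding gene of the maternal allele, was at 0.205 and 0.177 FPKM in U937, 37.9 and 7.59 FPKM in EaHy, 0 and 0.0918 FPKM in PC3M, and 0.193 and 0.159 FPKM in HEK293. It was higher in EaHy by a log2 difference of 4.71 ± 0.68 SE (limma adjusted p = 0.00303). MEG8, the host, was at 0.485 and 0 FPKM in U937, 3.05 and 4.35 FPKM in EaHy, and listed at 0 in all PC3M and HEK293 libraries (limma adjusted p = 0.00253 in EaHy, and 0.0515 without HEK293 replicate 2). Of 5 tested genes of this list, 3 were higher in EaHy, against 4.55% of all genes tested, the third being MEG9 (limma adjusted p = 0.0376, over 0.05 under several alternatives), and 1 was higher in PC3M, against 2.39% of all genes tested, DIO3, an enzyme that inactivates thyroid hormone (limma adjusted p = 0.0172). EaHy replicate 2 held MEG8 without any SNORD113 or SNORD114 gene above 0.

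Of the 145 scattered SNORD genes, 10 were listed at 0 throughout. SNORD48 and SNORD52 of C6orf48, SNORD84 and SNORD117 of DDX39B, and SNORD32B lie on chromosome 6, and the hosts C6orf48 and DDX39B were also listed at 0 in all 8 libraries. The others were SNORD7, SNORD64, SNORD90, SNORD91A and SNORD96B. Since whole hosts are at 0 too, a zero of this kind cannot be read as absence of the RNA. The precursor-processing snoRNAs U3, U8, U13 and U14 were not analysed here.

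Among the 126 scattered genes under 100 nt, 21 were present in all 6 libraries that listed any. SNORD36A, at 15.7 and 1251 FPKM in U937, 2428 and 0 FPKM in EaHy, 0 and 2436 FPKM in PC3M, and 4965 and 1446 FPKM in HEK293, had the highest mean log2 level among them, 7.20. SNORD104 followed, at 467 and 646 FPKM in U937, 1027 and 0 FPKM in EaHy, 0 and 2523 FPKM in PC3M, and 648 and 286 FPKM in HEK293. Neither differed from HEK293 at the threshold in any comparison. Within a library the level of scattered genes ranked weakly with that of the host, with Spearman correlations of 0.06 to 0.49 across 10 to 98 genes, which share a library and are not independent.

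Without EaHy replicate 2 and PC3M replicate 1, an alternative chosen after seeing the data, 5 of 139 SNORD genes were higher and 4 lower in U937. Among all 15882 genes tested in that fit, 845 were higher and 2066 lower in U937. That fit leaves 1 library each of EaHy and PC3M, assumed to vary like the other lines. The higher counts given above for EaHy and PC3M rest on which libraries are kept. SNORD31, SNORD35B, SNORD55 and SNORD81 were lower in both lines with and without EaHy replicate 2 and PC3M replicate 1. Those libraries listed every SNORD gene under 100 nt at 0, so only 1 library of each line could show these genes.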

How the data were processed

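Total RNA depleted of ribosomal RNA was sequenced in 8 libraries, 2 of each of 4 lines. The authors deposited FPKM values per gene, made with cutadapt, TopHat2 2.0.11 and Cufflinks 2.2.1 against hg19, per the submitters' processing notes. Counts of fragments were not used here, so the depth per gene is unknown and no counting interval is given. Reads were paired and 100 bp long, per the labels' protocols, and how short RNAs pass such a preparation could change their FPKM.

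SNORD genes were taken by symbol from all 23615 genes. Lengths and chromosomes came from RefSeq (GRCh38.p14), 251 genes matching by symbol and 1 by an older symbol. Sequences and hosts came from GENCODE 29, with 231 genes having exactly 1 transcript. Coordinates of hg19 and GRCh38 were not mixed.

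limma 3.58.1 (R 4.3.3) was fitted to log2(FPKM + 0.5) over all 4 lines for the 16295 genes with 0.5 FPKM or more in 2 libraries or more, with trended moderation, each binding line minus HEK293 and Benjamini-Hochberg adjustment over all genes tested. A fold change on this scale understates the change of low genes. The fit was tested on simulated data. Named genes were the SNORD115, SNORD116 and other 15q11 or 14q32 SNORD genes above 0, the 10 other SNORD genes with the highest mean, SNORD22, up to 12 called genes in each direction per comparison, SNORD genes present in 1 line alone, up to 4 called members of each list in each direction (the 2 highest where none was called) and the hosts of named SNORD genes. Others, such as the leading gene of a library, SNORD9, SNORD94, SNORD26 and the genes at 0 throughout, were chosen after their values were seen. The members and lists were chosen with earlier results of these data known, and the length classes, hosts and step search were chosen after seeing the data. Alternatives changed the pseudocount, filter, scaling, replicate block, libraries and lines entering the fit. Some sequences and host genes are not reported here.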

Additional observations from a re-analysis of the deposited data

How the results depend on the processing

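Counts are given as higher and lower SNORD genes against HEK293. They were 2 and 2 in U937, 0 and 15 in EaHy, and 2 and 25 in PC3M. Without a filter on low values they were 0 and 1, 0 and 6, and 0 and 8 for the same lines. Over all 23615 genes that fit called 586 and 1439, 614 and 1291, and 203 and 2048. Upper-quartile scaling gave 1 higher in PC3M, with 10 lower in EaHy and 19 in PC3M, and quantile normalization gave 1 higher in PC3M. Among all genes, upper-quartile scaling gave 1408 lower in EaHy. Fitting only the lines compared gave 5 and 4 in U937, 0 and 24 in EaHy, and 5 and 26 in PC3M, each of 139 SNORD genes. Over all 16295 genes those fits called 834 and 2091, 657 and 1336, and 324 and 3161. Scaling to the median SNORD gene left 0 and 0 calls in each comparison and among all genes, and reversed the log2 difference in PC3M of AP1G1 (0.64), FBL (0.62), NCL (0.53), RPAP3 (1.29), SNHG5 (0.26), SNX5 (0.75) and TAF1D (0.76). That scaling moved the median log2 difference of all genes tested to 2.14 in U937, 4.11 in EaHy and 2.57 in PC3M. The reversed values all lay below that PC3M median and are not read as changes of these genes. Leaving out a single library gave 1 to 4 higher and 2 to 9 lower in U937, 0 to 8 and 6 to 28 in EaHy, and 0 to 20 and 6 to 29 in PC3M. Without EaHy replicate 2 and PC3M replicate 1, chosen after seeing the data, they were 5 and 4, 11 and 14, and 29 and 21, and SNORD104 in PC3M turned to 2.55, against a range of -9.75 to 2.55 over single libraries. Without PC3M replicate 2 as well the SNORD counts were 7 and 5 in U937, against 863 and 2085 of all 15684 genes tested. With the replicate number as a block they were 2 and 2, 0 and 14, and 3 and 22, and FBL in PC3M reached an adjusted p of 0.0506. Over all genes the block fit called 687 and 1684, 702 and 1531, and 378 and 3493. Differences between same-numbered libraries correlated at -0.15 to 0.33 between lines, so the numbers were not taken as pairs. Scaling moved the median of all genes in PC3M, which was -1.26 as deposited, -0.29 after upper-quartile scaling and 0.00 after quantile normalization. PC3M calls over all genes were 390 higher and 4127 lower as deposited, 1138 and 1979 once scaled to the upper quartile, and 1283 and 1463 once quantiles were matched. With 2 libraries a line and no fragment counts, a gene listed at 0 may have gone undetected.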
